A study of Mus musculus with 24 samples.

Results

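The comparison described here is that of MUT with CON fat of the epididymal depot (eWAT, epididymal white adipose tissue) at circadian time 13 (CT13), the start of the subjective night, when nocturnal mice become active. It rests on the 6 arrays of that time, 3 MUT and 3 CON, out of 24 arrays in the series, which also sampled CT1, CT7 and CT19. Every gene with a probe set of its own was taken, 22180 in all, by its brightest probe set, and the 15526 genes above a floor on mean signal were tested.

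The control mice (CON) were Syt10-Cre/Cre x Bmal1-+/- and the mutants (MUT) were Syt10-Cre/Cre x Bmal1-flox/-. Both genotypes therefore were homozygous for Cre under the Syt10 promoter and carried 1 Bmal1 null allele, and they differed in the remaining allele, wild type in CON and flanked by loxP sites in MUT. By the labels, clock function was lost in the suprachiasmatic nucleus (SCN) of MUT mice, the pacemaker in the hypothalamus; the age of the animals is not given. Mice spent 2 weeks in a light-dark cycle, were moved to constant darkness and were killed on the second day at intervals of 6 h, with 3 mice per genotype and time and 1 array per mouse. The comparison at CT13 asks how far the fat transcriptome differs at the start of the active phase when the central pacemaker has no clock.

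As background, the mammalian clock is a transcriptional feedback loop present in almost every cell. BMAL1 (encoded by Arntl) pairs with CLOCK or NPAS2 and activates genes with E-boxes, among them the Per and Cry repressors, the REV-ERB receptors Nr1d1 and Nr1d2, and the PAR bZIP factors Dbp, Tef and Hlf. REV-ERB proteins repress, and ROR proteins activate, Arntl, Npas2 and Clock through ROR elements, so that the activating genes and the E-box genes peak at opposite times of day. In adipose tissue the local clock is set by signals that the SCN controls, including feeding, body temperature and glucocorticoids, and it times genes of lipid and glucose metabolism.

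The arrays give a log2 signal per probe set, and 0.05 after Benjamini-Hochberg adjustment over all genes tested was the threshold for calling a gene. Titles and treatment notes name eWAT, whereas the labels' source field reads mediobasal hypothalamus. Adipocyte markers stood at a median of the 99.7th percentile of gene signal (11 of 12 had a probe set of their own) and hypothalamic and neuronal markers at the 50.5th percentile (13 of 14). At CT13 Adipoq, which encodes adiponectin, averaged 11.29 in CON and 11.33 in MUT, while Snap25 of neuronal synapses averaged 7.90 and 7.82. Correlations between the 6 arrays over all probe sets ran from 0.9859 to 0.9941. The SD of signal over probe sets was 1.583 to 1.619 in CON and 1.627 to 1.629 in MUT, with the narrowest value in CON mouse a.

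Clock genes stood among the called differences at CT13 in both directions. The 3 activators Arntl, Npas2 and Clock were higher in MUT by 2.23-fold, 2.14-fold and 1.39-fold, and 6 E-box or output genes, Dbp, Per3, Nr1d2, Tef, Usp2 and Tspan4, were lower in MUT by 1.43-fold to 1.88-fold. Outside the clock the highest called differences were in Cdkn1a, Dtx4, Klb, Hmgcs1 and Pfkfb3, at 1.62-fold to 1.92-fold above CON. In all, 50 of 15526 genes were called (0.322%), 36 of them higher in MUT (0.232%) and 14 lower (0.0902%), by limma's moderated test in a model of all 24 arrays. The median size of a called difference was 0.48 on the log2 scale, against a median SD between mice of 0.12 in CON and 0.13 in MUT for the called genes. Of the called genes only Arntl and Npas2 passed 2-fold, and 15 passed 1.5-fold, 11 higher and 4 lower. At an unadjusted p under 0.05 there were 3073 genes.

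The number called depended on single arrays. Leaving out CON mouse a left 4 genes called, Arntl, Pfkfb3, Cdkn1a and Tspan4, and leaving out MUT mouse c left 8, Arntl, Npas2, Cdkn1a, Pfkfb3, Hmgcs1, Chd4, Usp2 and Zdhhc25. Without CON mouse c the count was 196, and without MUT mouse a it was 89. Each of the 50 genes kept its direction under all of the alternatives in which it was measured, and the median ratio of its size to the reported one lay between 0.903 and 1.11. Every called gene also had separate groups, with all 3 MUT mice on one side of all 3 CON mice. Such separation was common: it held for 10% of all genes with MUT higher and for 12.2% with MUT lower.

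**Figure D1:**
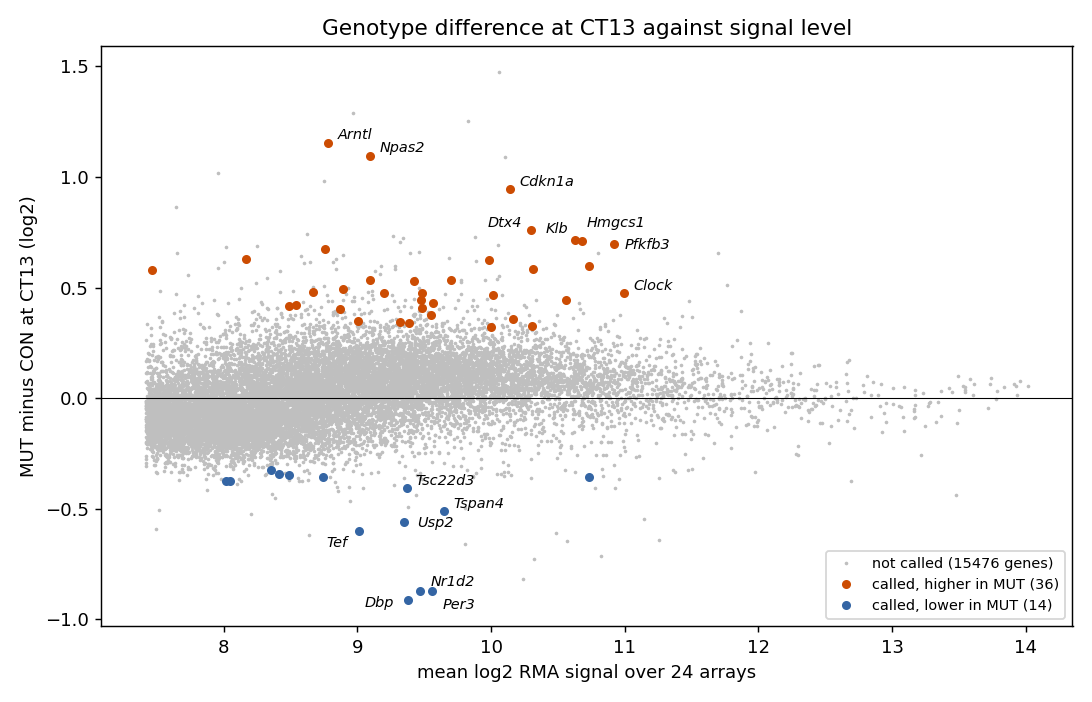
Each point is 1 of the 15526 genes tested; the horizontal axis is its mean log2 signal over the 24 arrays and the vertical axis is the mean of the 3 MUT mice minus that of the 3 CON mice at CT13 (log2). Orange points are the 36 genes called higher in MUT and blue points the 14 called lower; Arntl and Npas2 lie highest among the called genes and Dbp lowest, and the grey cloud lies slightly below 0 among dim genes and slightly above 0 among brighter ones.

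The difference between genotypes drifted with signal level. Its median over genes was -0.09 on the log2 scale in the lowest of 10 bins of signal level, 0.09 in the 8th and 0.0064 over all genes. Most genes called higher lay in brighter bins, with 8, 6 and 9 of the 36 in the 3 brightest bins. After a loess trend on level was removed, 56 genes were called, 31 higher and 25 lower, so that 55.4% were higher in MUT instead of 72%. Of the 50 reported genes 29 were also called in that fit; those that were not are Trnp1, Chd4, Efr3a, Dapk1, Mphosph6, Gga2, Slc7a8, Ffar2, E130311K13Rik, Pla2g15, Optc, Pfkp, Creb3l1, Lingo3, Cpeb4, Nav3, Dhx36, E2f4, Cox16, Afap1 and Cbl, with adjusted p from 0.05257 to 0.1489. Quantile normalization, which gives every array the same spread, called 65 genes, 37 of the 50 among them. With every array shifted to the same median, 236 genes were called and 93.2% of them were higher. With weights by array 13 genes were called, all of them among the 50. Without the 3 arrays that an earlier analysis of these data had marked for narrow signal spread, CON CT13 a and CON CT7 b and c, limma called 0 genes, with 1367 at an unadjusted p under 0.05; that fit keeps 2 CON mice at CT13.

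**Figure D2:**
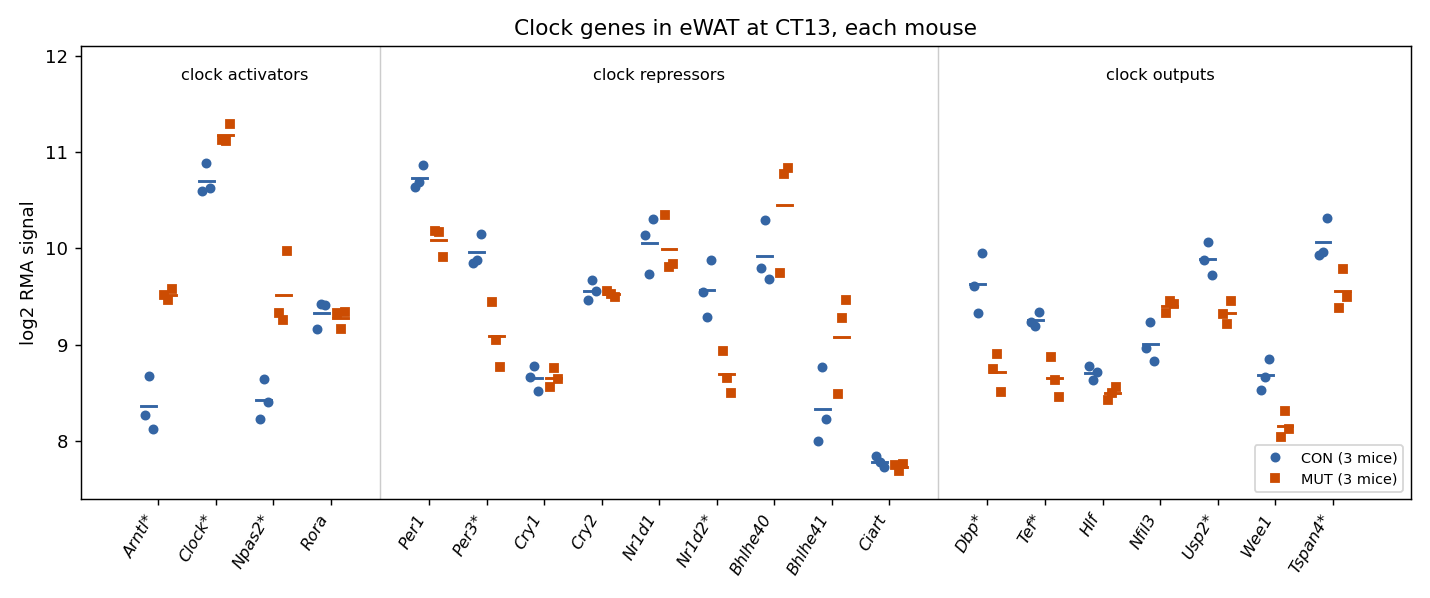
The vertical axis gives the log2 RMA signal at CT13 and each symbol is 1 mouse (blue circles CON, orange squares MUT, 3 of each; bars are group means), for the 20 clock genes tested, with an asterisk where the gene was called. Arntl, Clock and Npas2 are higher in all MUT mice than in any CON mouse, Per3, Nr1d2, Dbp, Tef, Usp2 and Tspan4 are lower, and Nr1d1, Cry1, Cry2, Rora and Ciart overlap.

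Of 4 clock activators tested, 3 were called higher and none lower, with a median difference of 0.78 on the log2 scale against 0.01 over all genes. Arntl, the floxed gene, encodes BMAL1 and stood at 8.27, 8.68 and 8.13 in the CON mice and at 9.51, 9.46 and 9.58 in the MUT mice. The difference was 1.16 ± 0.14 (log2, SE from the limma fit, n = 3 mice per group; adjusted p = 0.0007747). All MUT mice lay above all CON mice, and the MUT mice were closer to each other than the CON mice were. Because Cre acts where Syt10 is transcribed, the Arntl signal in fat is not a check of the deletion in the SCN. Syt10 itself, the Cre driver, was dim in both groups, at 7.62, 7.50 and 7.64 in CON mice against 7.45, 7.49 and 7.23 in MUT.

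Npas2, whose protein replaces CLOCK as a partner of BMAL1, stood at 8.23, 8.65 and 8.41 in CON mice against 9.33, 9.26 and 9.98 in MUT. It was higher in MUT by 1.09 ± 0.17 (log2; adjusted p = 0.008665, limma), with MUT mouse c highest of all. Clock, the other partner, stood at 10.59, 10.89 and 10.62 in CON mice against 11.13, 11.11 and 11.29 in MUT, a difference of 0.47 ± 0.09 (adjusted p = 0.01839). Its groups did not overlap either, with CON mouse b nearest to the MUT mice. Rora, which encodes an activating ROR receptor, overlapped between groups and differed by -0.05 ± 0.09 (adjusted p = 0.7336).

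Of 9 repressors, 2 were called lower, Per3 and Nr1d2, and none higher. Per3, a Period gene of the E-box limb, stood at 9.85, 9.88 and 10.15 in CON mice against 9.45, 9.05 and 8.77 in MUT, a difference of -0.87 ± 0.16 (adjusted p = 0.01798). Nr1d2, which encodes REV-ERB-beta, stood at 9.55, 9.28 and 9.88 in CON mice against 8.94, 8.66 and 8.50 in MUT, a difference of -0.87 ± 0.19 (adjusted p = 0.04675). In both genes every MUT mouse lay below every CON mouse, and Nr1d2 was the closer of the pair to the threshold.

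Its paralogue Nr1d1, which encodes REV-ERB-alpha, showed another picture at this time. The signals were 10.14, 9.73 and 10.31 in CON mice against 10.34, 9.80 and 9.84 in MUT, and they overlapped, with a difference of -0.07 ± 0.17 (adjusted p = 0.8411). At the other times Nr1d1 differed by -0.32 at CT1, -1.40 at CT7 and 2.24 at CT19, so CT13 was the time of its smallest difference. Per1, the Period gene that also responds to glucocorticoids, stood at 10.64, 10.69 and 10.86 in CON mice against 10.18, 10.17 and 9.91 in MUT. Its groups were apart, at -0.65 ± 0.14, and the adjusted p of 0.05034 missed the threshold.

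The Cryptochromes gave no difference beyond their spread: Cry1 differed by -0.0017 ± 0.0908 and Cry2 by -0.0346 ± 0.066 (adjusted p = 0.9932 and 0.7834). Bhlhe40 and Bhlhe41 encode the DEC repressors, which compete for E-boxes. Bhlhe40 stood at 9.80, 10.30 and 9.68 in CON mice against 9.75, 10.78 and 10.84 in MUT, 0.53 ± 0.22 apart (adjusted p = 0.1914). Bhlhe41 stood at 8.0025, 8.78 and 8.23 in CON mice against 8.49, 9.28 and 9.46 in MUT, 0.74 ± 0.24 apart (adjusted p = 0.1306). In each gene MUT mouse a fell within the CON range, and without that mouse both were called higher, by 0.88 and 1.04. Ciart (CHRONO) was dim and differed by -0.05 ± 0.07 (adjusted p = 0.7096).

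Of 7 output genes, 4 were called lower, none higher, and the median difference was -0.53 on the log2 scale. Dbp, the first of the PAR bZIP activators, which bind D-boxes, stood at 9.62, 9.33 and 9.95 in CON mice against 8.75, 8.91 and 8.51 in MUT. Its difference of -0.91 ± 0.17 (adjusted p = 0.01839, limma) was the lowest of all 15526 genes. Tef, of the same family, stood at 9.24, 9.20 and 9.34 in CON mice against 8.88, 8.64 and 8.46 in MUT, a difference of -0.60 ± 0.11 (adjusted p = 0.01839). The third member, Hlf, was also lower in every MUT mouse, by 0.21 ± 0.08, and was not called (adjusted p = 0.1646). Nfil3 (E4BP4), which represses through the same D-box, was higher in every MUT mouse, by 0.39 ± 0.10, and was not called (adjusted p = 0.08195).

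Usp2, a ubiquitin-specific protease with a strong daily rhythm in many tissues, stood at 9.88, 10.07 and 9.73 in CON mice against 9.32, 9.22 and 9.45 in MUT. It was lower by 0.56 ± 0.10 (adjusted p = 0.01798). Tspan4, a tetraspanin, stood at 9.93, 9.97 and 10.32 in CON mice against 9.39, 9.79 and 9.50 in MUT, a difference of -0.51 ± 0.10 (adjusted p = 0.01839). Wee1, the kinase that holds cells before mitosis, was lower in every MUT mouse, by 0.53 ± 0.13, and missed the threshold (adjusted p = 0.07536). Over the 3 lists, 9 of 20 clock genes were called, beside 0.322% of all genes. In 13 of 20 the groups did not overlap, 4 with MUT higher and 9 with MUT lower, beside 10% and 12.2% of all genes. Without CON mouse a only Arntl and Tspan4 remained called, without MUT mouse c only Arntl, Npas2 and Usp2, and all 9 called genes kept their direction in both fits.

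The promoters of clock genes are shown because E-boxes, ROR elements and D-boxes are the sites named above for these genes. RefSeq promoters of GRCm38.p6, from 250 bases before to 50 bases after the transcript start, were on hand for 18 of the 20 genes; Bhlhe40 and Wee1 were not in the table. Each is printed 5′ to 3′ on the strand of its gene, with the motif in capitals: the ROR element core AGGTCA in Arntl (chr7:113207261-113207560, plus strand) and Nr1d2 (chr14:18239057-18239356, minus strand), the E-box CACGTG in Tef (chr15:81802423-81802722, plus strand) and Tspan4 (chr7:141476130-141476429, plus strand), and a pair of D-boxes TTATGTAA in Per3 (chr4:151044616-151044915, minus strand).
Arntl: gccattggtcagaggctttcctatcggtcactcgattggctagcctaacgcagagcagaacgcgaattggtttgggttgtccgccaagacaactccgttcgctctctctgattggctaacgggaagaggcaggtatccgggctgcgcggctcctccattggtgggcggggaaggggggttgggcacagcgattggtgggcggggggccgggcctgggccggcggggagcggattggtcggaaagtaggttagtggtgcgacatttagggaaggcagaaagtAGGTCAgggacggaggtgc
Nr1d2: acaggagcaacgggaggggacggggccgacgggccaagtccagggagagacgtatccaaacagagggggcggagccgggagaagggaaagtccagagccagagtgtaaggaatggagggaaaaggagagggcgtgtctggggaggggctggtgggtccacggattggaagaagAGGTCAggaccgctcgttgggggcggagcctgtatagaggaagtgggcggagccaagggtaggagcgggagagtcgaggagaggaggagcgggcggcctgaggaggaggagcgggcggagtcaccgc
Tef: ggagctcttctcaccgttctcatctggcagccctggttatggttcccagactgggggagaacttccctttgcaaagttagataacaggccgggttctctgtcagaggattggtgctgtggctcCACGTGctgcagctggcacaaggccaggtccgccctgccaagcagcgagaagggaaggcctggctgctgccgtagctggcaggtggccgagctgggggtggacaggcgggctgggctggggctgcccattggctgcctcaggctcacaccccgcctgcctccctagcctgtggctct
Tspan4: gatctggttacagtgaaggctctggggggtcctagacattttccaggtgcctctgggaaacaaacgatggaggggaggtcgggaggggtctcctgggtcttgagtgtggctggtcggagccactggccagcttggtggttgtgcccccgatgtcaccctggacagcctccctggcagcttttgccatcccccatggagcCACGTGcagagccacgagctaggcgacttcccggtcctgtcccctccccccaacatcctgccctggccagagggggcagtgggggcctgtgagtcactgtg
Per3: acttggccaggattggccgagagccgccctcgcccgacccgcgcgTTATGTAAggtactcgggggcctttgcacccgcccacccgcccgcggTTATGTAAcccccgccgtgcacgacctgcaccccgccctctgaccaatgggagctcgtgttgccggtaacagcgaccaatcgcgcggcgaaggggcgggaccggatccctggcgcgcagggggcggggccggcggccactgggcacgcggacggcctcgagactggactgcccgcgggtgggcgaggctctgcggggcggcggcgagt

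Arntl, higher in MUT, holds the AGGTCA core 31 bases after the start of the transcript shown, and Nr1d2, lower in MUT, holds it 77 bases before its start. The core alone occurred in genes that moved in opposite directions. The letters before it were GAAAGT in Arntl and AAGAAG in Nr1d2. Only the core was searched for, so a match is not a full ROR element. Tef holds its E-box 127 bases and Tspan4 51 bases before the start, and both fell. The table lists more than 1 promoter for some genes: 1 of 2 for Arntl, 1 of 2 for Tspan4, 1 of 2 for Per1 and 1 of 3 for Clock hold a motif, and for Arntl and Tspan4 the one that holds it is printed, while both promoters of Tef hold an E-box. Per3 holds D-boxes 205 and 158 bases before the start, which were the only D-boxes found in the 18 genes. The motifs were searched on both strands as CACGTG, as AGGTCA, and as TTATGTAA, TTACGTAA or TTATATAA for the D-box, and no match overlapped another in these genes.

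By gene, counting a motif in any promoter of the gene, an E-box was present in 2 of 6 genes called lower, 0 of 3 called higher and 4 of 9 not called (Per1, Cry1, Bhlhe41 and Ciart). One was held by 8.09% of all 27025 genes with a promoter listed. The AGGTCA core was present in 1 of 6 called lower, 2 of 3 called higher (Arntl and Clock) and 2 of 9 not called, against 18.1% of all genes. The D-box forms were present in 1.86% of all genes. A window of this length leaves out distal and intronic elements, and a match is a description of the letters.

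The levels at CT13 can be read beside those of the controls at the times before and after. Arntl in CON averaged 8.07 at CT7, 8.36 at CT13 and 9.54 at CT19, and in MUT at CT13 it averaged 9.52. Npas2 in CON averaged 8.43 at CT7, 8.43 at CT13 and 9.88 at CT19, against 9.52 in MUT at CT13. In both activators the MUT mean at CT13 was nearer to the later CON mean than to the CON mean of the same time. Dbp went the other way, with CON means of 10.66 at CT7, 9.63 at CT13 and 8.53 at CT19 and a MUT mean of 8.72 at CT13. Per3 averaged 10.40, 9.96 and 8.83 in CON at those times and 9.09 in MUT at CT13. Nr1d2 averaged 10.37, 9.57 and 8.30 in CON and 8.70 in MUT at CT13. The genes set out so far were all called at CT13, and not every clock gene went this way. Nr1d1 averaged 10.06 at CT13 and 9.42 at CT19 in CON, and 9.99 in MUT at CT13. Cry1 averaged 8.66 and 8.98 in CON at those times and 8.66 in MUT at CT13. In both the MUT mean was nearer to the CON mean of the same time. These values share the CON and MUT arrays of CT13 with the comparison itself and are set side by side without a test.

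**Figure D3:**
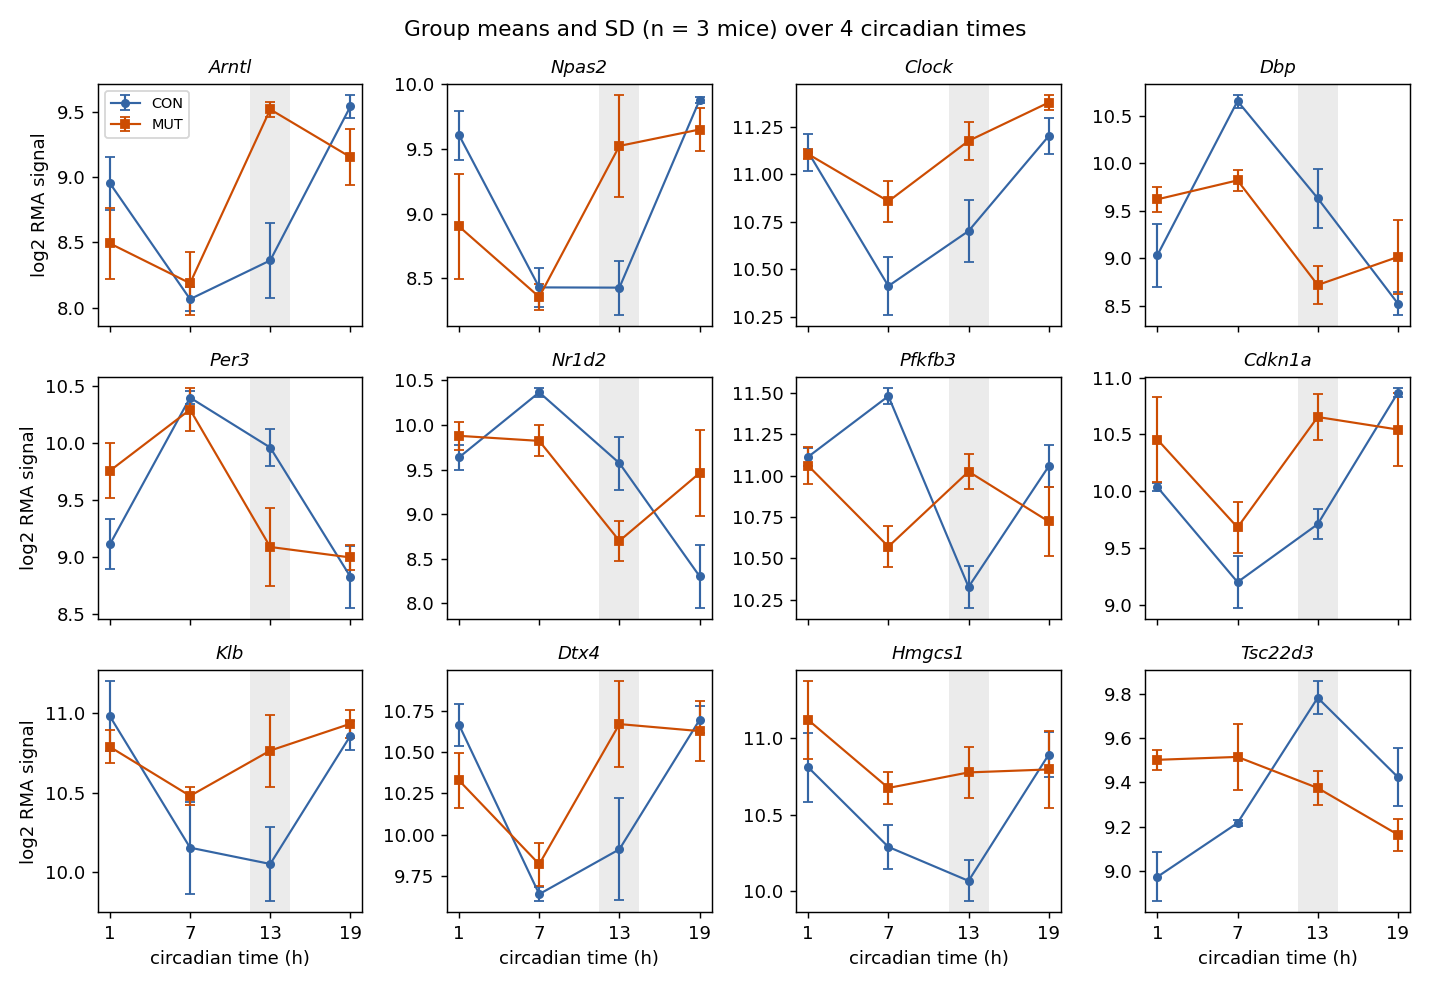
Points are group means of log2 RMA signal and bars are SD over 3 mice, by circadian time (h), for 12 of the genes called at CT13, with CON in blue circles and MUT in orange squares; the shaded band marks CT13. At CT13 MUT is above CON for Arntl, Npas2, Clock, Pfkfb3, Cdkn1a, Klb, Dtx4 and Hmgcs1 and below it for Dbp, Per3, Nr1d2 and Tsc22d3, and for each of the 12 the sign of the means is turned at 1 or more of the other times.

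Whether a difference at CT13 departed from the other times was tested directly, as the CT13 difference minus the mean of those at CT1, CT7 and CT19. By that contrast 18 genes were called (0.116%), 11 toward higher in MUT at CT13 (0.0708%) and 7 toward lower (0.0451%). Of these, 14 were among the 50 genes called at CT13, which is 28% of the 50 and 77.8% of the 18. The 8 clock genes among them were as follows: Arntl and Npas2 upward and Per3, Nr1d2, Dbp, Tef, Tspan4 and Wee1 downward. The estimate was 1.40 for Arntl (adjusted p = 0.0001745) and 1.43 for Npas2 (adjusted p = 0.001276). In the other direction it was -1.16 for Nr1d2 (adjusted p = 0.02836), -1.11 for Per3 (adjusted p = 0.009022) and -0.99 for Dbp (adjusted p = 0.03671).

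Arntl and Npas2 were lower in MUT by the means at CT1 (-0.46 and -0.71) and at CT19 (-0.39 and -0.23), and neither was called there. Wee1, which missed the threshold at CT13 itself, was called for the contrast at -0.84 (adjusted p = 0.01994), with MUT higher at CT7 by 0.55 (adjusted p = 0.0183). So were the snoRNA host genes Snhg1 (0.48) and Zfas1 (0.54) and the vascular growth factor gene Vegfa (0.48), none of them called at CT13. Clock was not called for this contrast (0.27, adjusted p = 0.4211), since it was also higher in MUT at CT7, by 0.45 (adjusted p = 0.006725). The count of 18 fell to 6 without CON mouse a and to 4 without CON mouse c or MUT mouse c, and it rose to 29 without CON mouse b and to 56 without MUT mouse b.

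Pfkfb3, which makes the glycolytic activator fructose 2,6-bisphosphate, gave the smallest p of that contrast. At CT13 it stood at 10.31, 10.46 and 10.21 in CON mice against 11.01, 10.93 and 11.13 in MUT, higher by 0.70 ± 0.10 (adjusted p = 0.001611, limma). No MUT mouse overlapped a CON mouse. At CT7 the sign was turned, with MUT lower by 0.91 (adjusted p = 1.086e-05), and the CT13 difference exceeded the mean of the other times by 1.13 (adjusted p = 8.424e-06). CON averaged 11.48 at CT7 and 11.06 at CT19, so CT13 was the lowest point of the CON mice. Pfkp, the platelet-type phosphofructokinase, was also higher at CT13, by 0.43 ± 0.09 (adjusted p = 0.03355).

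Cdkn1a encodes p21, an inhibitor of cyclin-dependent kinases that is a target of p53 and of glucocorticoids. Its signals were 9.86, 9.63 and 9.63 in CON mice against 10.72, 10.81 and 10.43 in MUT, a difference of 0.94 ± 0.16 (adjusted p = 0.01573). The groups stood clearly apart, and CON averaged 9.20 at CT7 and 10.87 at CT19. It was the single called gene of 9 tested p53 targets, whose median difference was 0.03. For the contrast with the other times it was not called (0.75, adjusted p = 0.1579).

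Klb encodes beta-Klotho, the co-receptor through which fat cells respond to FGF21. Its signals were 9.99, 10.31 and 9.85 in CON mice against 10.83, 10.51 and 10.95 in MUT, a difference of 0.71 ± 0.13 (adjusted p = 0.01839). Dtx4, a Deltex ubiquitin ligase of the Notch pathway, stood at 9.95, 10.20 and 9.58 in CON mice against 10.83, 10.37 and 10.81 in MUT, a difference of 0.76 ± 0.13 (adjusted p = 0.01631). In both genes MUT mouse b was the lowest MUT mouse and CON mouse b the highest CON mouse, so these mice set the gap between the groups. Dtx4 was called for the contrast with the other times (0.83, adjusted p = 0.02568) and Klb was not (0.64, adjusted p = 0.1448).

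Hmgcs1, which makes HMG-CoA for cholesterol synthesis, stood at 9.92, 10.17 and 10.11 in CON mice against 10.91, 10.82 and 10.59 in MUT. It was higher by 0.71 ± 0.14 (adjusted p = 0.02073), with no overlap. It was the only call among 14 cholesterol synthesis genes tested, whose median difference was 0.29 with a range of -0.04 to 0.71, against 0.01 over all genes. Hmgcs1 lies in the brightest of 10 bins of signal level, where the median over genes was 0.06, and it was 0.09 in the 9th bin. In 6 of the 14 all MUT mice exceeded all CON mice, against 10% of all genes, and the others of these 6 were Cyp51 (0.54), Sqle (0.38), Sc5d (0.37), Msmo1 (0.30) and Srebf2 (0.21), with adjusted p from 0.1144 to 0.1678. Insig1, the sterol-regulated retention protein, differed by 0.51 ± 0.22 with overlap.

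The remaining genes among the 12 highest called differences were spread over several functions. They were Plekhg1 (0.67), Glrx (0.63), the cytosolic glutaredoxin, Morc4 (0.62), a MORC family zinc finger protein, Dapk1 (0.60), a death-associated protein kinase, and Slc7a8 (0.58), the amino acid transporter LAT2. Slc7a8 was higher in MUT at CT19 too, by 0.58 (adjusted p = 0.01459), and Dapk1 and Morc4 were higher at CT7, by 0.52 and 0.46 (adjusted p = 0.018 and 0.02484). Genes called with smaller differences included Ffar2 (0.53), a receptor for short-chain fatty acids, Gpcpd1 (0.53), a glycerophosphocholine phosphodiesterase, and Pla2g15 (0.44), the lysosomal phospholipase A2. Fabp7 (0.58), a fatty acid binding protein known from brain, lay at the 1.54th percentile of tested signal, so its value is that of a dim probe set. At CT13 its CON mean of 7.29 lay below the floor on mean signal and its MUT mean of 7.87 above it. Fabp7 thus stayed among the genes tested through arrays of higher signal. Its call is counted among the genes called higher, and its test result is given as description.

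Creb3l1 (0.53), Gtf2ird1 (0.49), E2f4 (0.37) and Chd4 (0.33), a remodeller of the NuRD complex, were also called higher. Chd4 showed the closest replicates, with 10.14, 10.12 and 10.10 in CON mice against 10.50, 10.42 and 10.42 in MUT (adjusted p = 0.01573). It was among the genes called for the contrast with the other times (0.36, adjusted p = 0.01994), as were Rilpl2 (0.62), Gpcpd1 (0.57) and Efr3a (0.53), with adjusted p of 0.02836, 0.01994 and 0.03412. Further genes called higher were Nav3, Mphosph6, Cpeb4, Ccdc125, Tstd3, Cox16, E130311K13Rik, Gga2, Pwp1, Dhx36, Afap1 and Cbl, at 0.32 to 0.48.

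Below the clock genes, the lowest called gene was Tsc22d3, which encodes GILZ, the glucocorticoid-induced leucine zipper protein. Its signals were 9.85, 9.79 and 9.70 in CON mice against 9.44, 9.39 and 9.29 in MUT, a difference of -0.41 ± 0.08 (adjusted p = 0.0222). The order was turned at CT1 and CT7, where MUT was higher by 0.53 and 0.30 (adjusted p = 0.01198 and 0.03272). The contrast of CT13 with the other times was -0.60 (adjusted p = 0.004241). In CON the mean at CT13 was the highest of the 4 times, which the panel for Tsc22d3 shows.

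The other called genes below CON were small differences, from -0.33 to -0.38. They were Optc, which encodes the matrix proteoglycan opticin, Lingo3, Gm7138, a predicted gene, Krtap5-4, of the keratin-associated proteins, Trnp1, Nags, the enzyme that makes the urea cycle cofactor N-acetylglutamate, and Zdhhc25, a palmitoyltransferase. All but Gm7138 lay at or below the 52.7th percentile of tested signal, the levels at which the median difference of all genes was below or near 0. Zdhhc25 had the tightest replicates of these, at 8.61, 8.54 and 8.55 in CON mice against 8.29, 8.18 and 8.26 in MUT (adjusted p = 0.01317), and Krtap5-4 was lower at CT7 as well, by 0.32 (adjusted p = 0.01626).

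Among 14 glucocorticoid targets tested, Tsc22d3 was called lower and Cdkn1a higher, and the median difference was 0.01. Groups did not overlap in 7 of them, 3 higher and 4 lower in MUT, beside 10% and 12.2% of all genes. Zbtb16 (PLZF) was lower in every MUT mouse, at 11.26, 10.83 and 10.36 against 11.49, 11.52 and 11.37 in CON, and was not called (-0.64 ± 0.18, adjusted p = 0.09177). Fkbp5, the co-chaperone of the glucocorticoid receptor, differed by -0.32 ± 0.12 with overlap (adjusted p = 0.1681). Sgk1 differed by 0.18 ± 0.15 (adjusted p = 0.4839).

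Metabolic lists held few calls at CT13, beside 0.322% of all genes. At that share a list of this length is likely to hold no call, so the counts are not a result about the lists. Of 21 fatty acid and triglyceride synthesis genes none was called; the median difference was 0.10, and the smallest p belonged to Pnpla3 (0.66 ± 0.19, adjusted p = 0.1098) and Fads2 (0.33 ± 0.12, adjusted p = 0.1608). None of 15 lipolysis and fatty acid handling genes was called. Among them Angptl8, an insulin-induced inhibitor of lipoprotein lipase, had the largest difference and the widest spread, with 10.14, 10.80 and 9.66 in CON mice against 10.21, 11.46 and 12.21 in MUT (1.09 ± 0.33, adjusted p = 0.1189). MUT mouse a, the lowest MUT mouse, lay inside the CON range, and without it Angptl8 was called at 1.63 (adjusted p = 0.008376, limma). Leaving out the lowest MUT mouse raises the difference by construction, so that call is given as description. Lipe, the hormone-sensitive lipase, differed by -0.13 ± 0.06 (adjusted p = 0.2087).

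Pfkfb3 was the 1 call among 18 genes of insulin signalling and glucose use, which had a median of 0.03. The counts here too stand beside 0.322% of all genes called. No gene was called among 11 of fatty acid oxidation (median 0.09), 9 adipokines (median -0.05), 15 of oxidative phosphorylation (median 0.02), 11 adipogenic transcription factors (median 0.02), 9 of adrenergic and cAMP signalling (median 0.03) or 12 of circadian NAD and redox metabolism (median -0.0016). Lep, which encodes leptin, differed by -0.05 ± 0.14 (adjusted p = 0.8568), and Nrg4, a neuregulin released by fat, by -0.29 ± 0.09 (adjusted p = 0.1274). Acadm (0.17) and Pdk4 (0.18) had the smallest p of the oxidation genes, Sdha (0.11) and Ndufs1 (0.16) of the respiratory chain, Klf5 (-0.26) and Pparg (0.15) of the adipogenic factors, Prkaca (0.15) and Creb1 (0.11) of the cAMP list and Hmox1 (0.57) and Parp1 (0.12) of the NAD list. Agt, the angiotensinogen gene, differed by 0.19 ± 0.11 (adjusted p = 0.3326).

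Stress, immune and matrix lists likewise held no call: 12 heat shock genes (median 0.06), 2 cold-inducible RNA-binding genes (0.08), 15 of the unfolded protein response (0.12), 12 immediate early genes (-0.03), 7 of the interferon response (0.07), 9 of inflammation (0.01), 6 of the cell cycle (0.05) and 13 of the extracellular matrix (0.19). With 0.322% of all genes called, a list of this length without a call is no result about its members. The smallest p were those of Hspd1 (0.27), Hspa8 (0.15), Cirbp (0.17), Srsf5 (-0.0029), Calr (0.20), Dnajb11 (0.19), Egr1 (0.34), Zfp36 (-0.20), Ifit3 (-0.17), Usp18 (0.19), Ccl7 (0.31), Saa3 (0.33), Pcna (0.12) and Ccnd1 (0.22), with adjusted p from 0.1117 to 0.9901. Of the matrix genes, 5 of 13 were higher in every MUT mouse, against 10% of all genes, a share that was not split by signal level. The nearest to the threshold were Lox, the collagen cross-linking lysyl oxidase (0.38 ± 0.10, adjusted p = 0.08257), and Col5a1 (0.31 ± 0.08, adjusted p = 0.08773).

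None of the marker genes of 14 cell types was called at CT13, beside 0.322% of all genes, a share at which such short lists are likely to hold no call. In a tissue sample, fewer cells of a type and less RNA per cell cannot be told apart. The summed linear signal of 11 adipocyte markers was 87320 to 89710 in CON and 87730 to 89450 in MUT, so the ranges overlapped almost fully. Mesothelium, the lining of the fat pad, varied between mice: the median deviation of its 9 markers was -0.10, -0.12 and 0.44 in CON mice a, b and c and -0.12, 0.91 and -0.0048 in MUT mice a, b and c. Macrophage markers (12 genes) summed to 6243 to 8668 in CON and 7339 to 8754 in MUT, and endothelial markers (9 genes) to 13490 to 15070 and 14630 to 16320. With the mesothelium score as a covariate 54 genes were called, 44 of the 50 among them. Hypothalamic and neuronal markers summed to 3423 to 3634 in CON and 3100 to 3219 in MUT, and epididymis markers to 1319 to 1407 and 1225 to 1261, both without overlap and with none called. Of their tested members, 2 of 9 and 3 of 4 were lower in every MUT mouse, beside 12.2% of all genes. Both lists are of modest signal, at a median of the 50.5th and 48.8th percentile. Over all genes the median difference was also below 0 in dim bins, at -0.08 in the 3rd of 10. Whether signal level accounts for these sums was not tested. The sums of the dimmest list, mast cells (1282 to 1738 in CON and 1384 to 1411 in MUT), and of brown adipocytes and B cells overlapped.

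The marker genes with the smallest p in their lists were Lrrn4 (0.50) and Upk1b (0.42) of the mesothelium, Tek (0.42) and Kdr (0.25) of the endothelium, and Mpeg1 (0.33) and Cd68 (0.32) of macrophages. Tek and Kdr encode receptors for angiopoietins and VEGF and were higher in every MUT mouse, with adjusted p of 0.1085 and 0.1729 (limma). They were the only 2 of 9 endothelial markers with such separation, beside 10% of all genes, and the median difference of the 9 was 0.10. The mesothelial genes were highest in MUT mouse b, the mouse with the highest mesothelium score. For B cells the values were Pax5 (-0.08) and Ighm (0.16), for T cells Cd2 (-0.18) and Cd4 (-0.09), for mast cells Kit (-0.25) and Cpa3 (0.24), for fibroblasts Col1a1 (0.22) and Pi16 (-0.32), and for brown adipocytes Ucp1 (-0.06) and Cox8b (0.28).

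Fewer genes were called at CT13 than at CT7 and CT19. The comparisons at those times, which share no array with CT13, called 629 genes (4.05%) and 425 genes (2.74%), and that at CT1 called 7 (0.0451%). All 4 comparisons take the spread of a gene from the same fit, so calls of 1 gene at several times are not independent. At an unadjusted p under 0.05 by limma, CT13, CT7 and CT19 were closer, with 3073, 3195 and 3537 genes. CT1 had 1791 by that measure. Over all 15526 genes the CT13 differences correlated with those at CT7 at r = 0.40, with those at CT19 at r = 0.28 and with those at CT1 at r = 0.18. Genes are not independent replicates, and the points share the probe sets and the normalization. The arrays of narrow signal spread, CON CT13 a (SD 1.583) and CON CT7 b and c (1.585 and 1.591), are controls of CT13 and CT7. Their part in the likeness of the differences at CT13 and CT7 was not tested. Of 36 genes called higher at CT13, 8 were also called higher at CT7, which is 22.2% of the 36 and 1.73% of the 462 called higher there. Of 14 called lower, 2 were called lower at CT7 (14.3% of the 14 and 1.2% of 167) and 3 at CT19 (21.4% of the 14 and 2.38% of 126). No gene was called in 1 direction at all 4 times, and 33 of the 50 were called at CT13 alone among the 4 times.

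**Figure D4:**
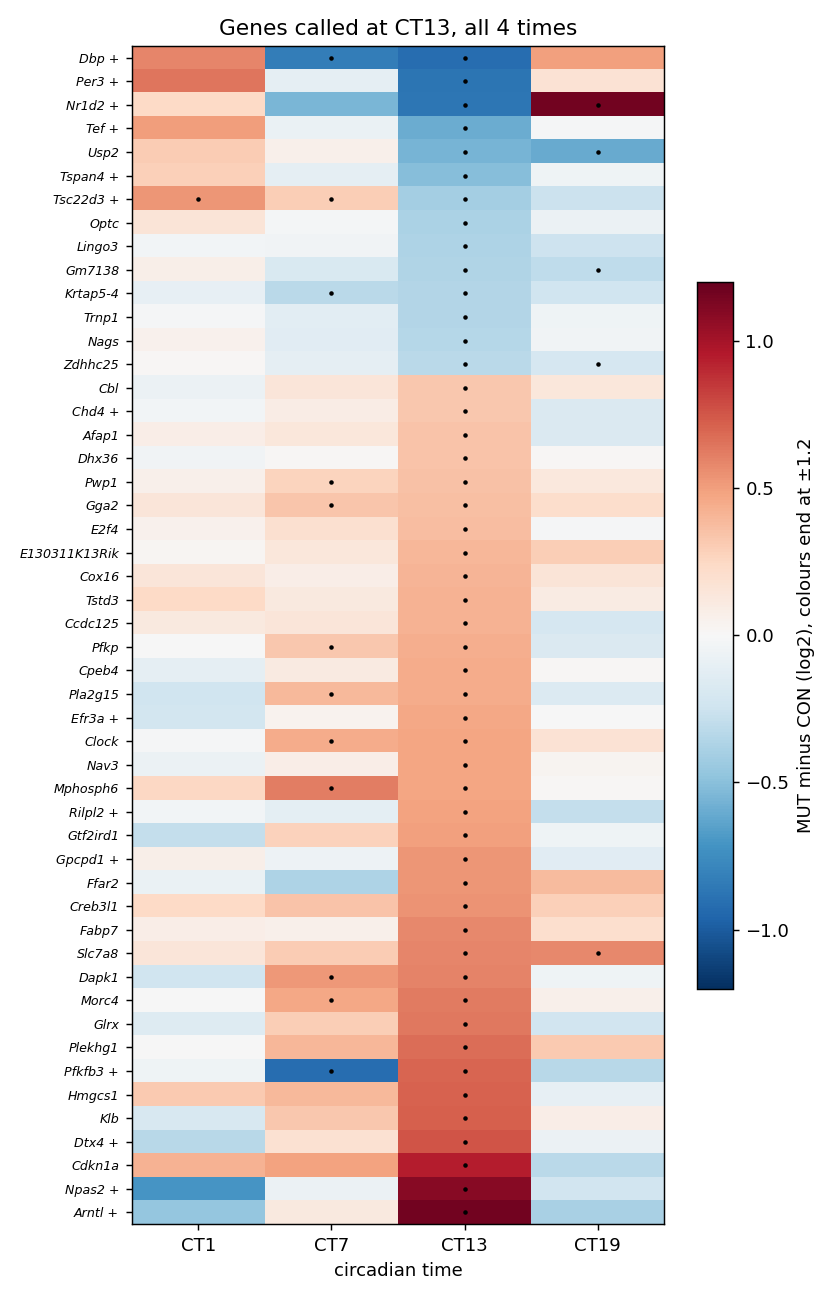
Each line is 1 of the 50 genes called at CT13, ordered by its CT13 difference, and each column is a circadian time; colour gives MUT minus CON (log2, red higher and blue lower in MUT), dots mark adjusted p under 0.05 and a plus sign marks the 14 genes called for the CT13 contrast with the other times. The CT7 column has the sign of the CT13 column in 31 of 36 higher and 12 of 14 lower genes, where the differences at CT13 and CT7 correlate at r = 0.40 over all genes. Pfkfb3 at CT7, Nr1d2 at CT19 and Tsc22d3 at CT1 and CT7 are called with the opposite sign.

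The signs of the called genes at the other times differed by time. At CT7, 31 of the 36 genes higher at CT13 and 12 of the 14 lower had the same sign, at CT19 18 of 36 and 11 of 14, and at CT1 15 of 36 and 3 of 14. The share of agreeing signs over all genes was not counted. Over all genes the differences at CT13 correlated with those at CT7 at r = 0.40, so these counts do not mark a trait of the called genes. Nr1d2 was called in opposite directions at CT13 and CT19, where MUT was higher by 1.16 (adjusted p = 0.00233). Dbp was lower in MUT at CT7 as well, by 0.83 (adjusted p = 0.008392). Usp2 was lower at CT13 and again at CT19, by 0.60 (adjusted p = 0.00266). Clock, Pfkp, Pla2g15, Gga2, Pwp1, Mphosph6, Dapk1 and Morc4 were the 8 genes called higher at both CT13 and CT7, with Mphosph6 the farthest apart at CT7 (0.61, adjusted p = 0.001397).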

How the data were processed

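The authors deposited log2 signals of probe sets, computed with RMA and Affymetrix Expression Console per the submitters' processing notes. Tool versions, settings and the genome build: not given in the sources used here. Only the 23521 of 34390 probe sets with a single gene symbol were used (1814 had several, 9055 had none), with symbols updated by Entrez identifier to GRCm38.p6 (193 found no match). Genes whose mean signal was below its 30th percentile (7.416) were dropped. All 24 arrays entered 1 limma fit (version 3.58.1, R 4.3.3) with a mean per group (16 residual degrees of freedom, two-sided, Benjamini-Hochberg over all 15526 genes), which was tested on simulated data. The spread is thus pooled over 8 groups, and precision is set by the number of arrays; signal over background is unknown, since RMA values carry no detection call.

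The text names all clock list members, the 12 highest and 12 lowest called differences, up to 4 called members (or 2 uncalled) per other list, and up to 8 per direction for the contrast with the other times. Other genes were chosen after their values were seen: the rest of the 50 called, the 4 called for the contrast alone, and examples from the cholesterol, glucocorticoid and adipokine lists. Members and lists were chosen with earlier results of these data known, so list counts are descriptions. RefSeq promoter sequences were searched with Python 3.11.15. The alternatives were other normalizations, filters, probe set rules, variance models and array weights, each array left out, letters as a block, the mesothelium score as a covariate, 3 arrays of narrow spread left out, the level trend removed and the 6 arrays alone.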

Additional observations from a re-analysis of the deposited data

Results flagged for a closer look

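The results here were marked because the genotype difference at CT13 departed from the mean of the differences at CT1, CT7 and CT19 by limma's test of that contrast. It held for 18 genes. The clock genes among them were Arntl (1.40) and Npas2 (1.43), which moved upward, and Nr1d2 (-1.16), Per3 (-1.11), Dbp (-0.99), Wee1 (-0.84), Tef (-0.74) and Tspan4 (-0.55), which moved downward, all as log2 differences between CT13 and the other times. Outside the clock lists the estimates were 1.13 for Pfkfb3, 0.83 for Dtx4, 0.62 for Rilpl2, 0.57 for Gpcpd1, 0.53 for Efr3a and 0.36 for Chd4, and -0.60 for Tsc22d3. Snhg1 (0.48), Zfas1 (0.54) and Vegfa (0.48), not called at CT13 itself, complete the 18. Groups of 3 mice are too small for a test of single outlying samples.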

How the results depend on the processing

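The 50 calls at CT13 (36 higher, 14 lower) became 4 to 196 when 1 array was left out, with 3 to 139 higher and 1 to 57 lower. The 18 calls of the contrast with the other times became 4 to 56, with 3 to 33 upward and 1 to 23 downward. At CT13 the same-median shift gave 236 calls (220 higher), no level filter 29 (20 higher, 9 lower), array weights 13 (10 and 3), the 6 arrays alone 1 (1 and 0) and a fold of at least 1.5 gave 15 (11 and 4). Without the 3 arrays of narrow spread, CON CT7 b and c and CON CT13 a, limma called 0 genes (0 higher, 0 lower), with 1367 at an unadjusted p under 0.05. Quantile normalization gave 22 lower and the removed level trend 25 lower. For the contrast, array weights gave 11 (6 upward), quantile normalization 12 downward (47.8% upward instead of 61.1%), and the fit without the narrow arrays 3 (3 and 0). The letters of the titles were not used to pair the mice. Deviations of same-letter mice correlated at 0.28, -0.30 and -0.10, and those of different letters at -0.38 to 0.41. With 3 mice per group these values cannot decide whether a letter marks a pair. With the letters as a replicate block 37 genes were called at CT13 (25 and 12) and 10 for the contrast (6 and 4). The 20 clock genes gave 9 calls in the reported fit and 0 to 11 over the alternatives. Of the 29 CT13 genes named and called, none stayed called in all alternatives. Genes whose sign turned were not called in either fit; their reported CT13 differences were largest for Pi16 (-0.32), Cox8b (0.28), Ighm (0.16) and Prkaca (0.15). Over arrays left out the differences ran from -0.1393 to 0.0018 for Rora, -0.0676 to 0.061 for Cry1, -0.0846 to 0.018 for Cry2, -0.2399 to 0.0582 for Nr1d1, -0.1364 to 0.0035 for Pax5, -0.0798 to 0.4236 for Ighm, -0.5065 to 0.0101 for Pi16, -0.1136 to 0.0009 for Ucp1, -0.0658 to 0.7749 for Cox8b, -0.1005 to 0.1186 for Srsf5, -0.0012 to 0.2272 for Prkaca, and -0.0405 to 0.0621 for Cry2 in the contrast. The same-median shift gave 0.0078 for Rora, 0.0602 for Cry1, 0.0274 for Cry2, 0.013 for Ciart and 0.0591 for Srsf5. Quantile normalization gave 0.0144 for Ciart, 0.0003 for Ucp1 and -0.0232 for Cry2 in the contrast. The removed trend gave 0.0115 for Ciart and 0.0091 for Ucp1, and array weights 0.1105 for Nr1d1, 0.0299 for Srsf5 and -0.0127 for Cry2 in the contrast. The fit without the narrow arrays gave 0.0015 for Cry1, 0.0035 for Pax5 and -0.0231 for Cry2 in the contrast, and the mesothelium score -0.0003 for Cry2 in the contrast. The cause of these changes was not tested.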

Other observations

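Several genes with differences as large as those of the clock genes were not called. Folh1, a glutamate carboxypeptidase, stood at 7.71, 8.71 and 8.06 in CON mice against 9.86, 9.16 and 9.33 in MUT at CT13, a difference of 1.29 ± 0.31 (log2, SE; adjusted p = 0.06772, limma). Its groups did not overlap, and it was higher in MUT by the means at CT1 (1.44), CT7 (0.75) and CT19 (0.97) as well. Trim12c, of the tripartite motif family, stood at 7.07, 7.22 and 7.17 in CON mice against 8.02, 8.05 and 7.99 in MUT, a difference of 0.86 ± 0.25 (adjusted p = 0.1051). All of these CON values lay below the floor of 7.416 on mean signal, and the MUT values lay above it. Trim12c thus stayed among the genes tested through arrays of higher signal, and its test results are given as description. It was the 1 gene called when only the 6 CT13 arrays were fitted (adjusted p = 0.01283, limma). MUT was higher at CT1 (0.44), CT7 (0.58) and CT19 (1.07, adjusted p = 0.02536) too. Both were named after their values were seen, and for neither did CT13 depart from the other times (0.24 and 0.17, adjusted p = 0.8812 and 0.8944). In GRCm38.p6 both genes lie on chromosome 7, as Arntl does; the relation was not tested.

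Other uncalled differences came with wide spreads between mice. Sfrp5, a Wnt inhibitor secreted by fat, stood at 9.14, 8.12 and 10.97 in CON mice against 7.68, 10.84 and 7.84 in MUT, and its highest values were in CON mouse c and MUT mouse b, the mice with the highest mesothelium scores. Pgm3, of the hexosamine pathway, stood at 8.25, 8.65 and 8.37 in CON mice against 8.93, 9.17 and 10.11 in MUT (0.98 ± 0.36, adjusted p = 0.1639), with the sign turned at CT19 (-1.14). Man2a2, a Golgi mannosidase, was lower in every MUT mouse at CT13, at 10.44, 10.23 and 10.61 against 11.40, 10.99 and 11.02 in CON, by 0.71 ± 0.21 (adjusted p = 0.1101). It was lower in MUT by the means at CT1 (-0.15), CT7 (-0.64) and CT19 (-0.69) as well.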
